A study of Homo sapiens with 2 samples.

Results

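Lysine lactylation was mapped in CAL27, a human oral squamous cell carcinoma line, and the regions described here lie at the ends of long noncoding RNA (lncRNA) genes. A called region belonged to the set when its strongest summit lay within 1 kb of either end of a RefSeq lncRNA gene on GRCh38 and over 3 kb from every protein-coding gene end, on chromosomes 1 to 22 and X. NEAT1 and MALAT1 were left out. The set held 2112 of 50111 regions on these chromosomes in the library labelled lactate and 1833 of 43413 in the library labelled untreated, called the lactate-labelled and untreated-labelled libraries below. Both libraries came from CAL27 cells profiled by CUT&Tag, in which an antibody directs a transposase to cut chromatin beside its target, here with a pan-lactyllysine antibody. Cells of the lactate-labelled library received 10 mM lactate over 24 hours, and cells of the untreated-labelled library received none. There was 1 library per group, so the 2 libraries are compared as libraries, not as treatments, and no test was made. Every interval given below is a 95% interval of counting error only, and tags are not independent molecules.

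The labels and the headers of the peak lists disagree. All 58929 summits of the list labelled lactate carry the other sample's name, and so do all 49750 of the list labelled untreated. The labels were followed throughout, and every direction between libraries would turn if the lists had been exchanged. Depth was 15120031 tags in the lactate-labelled library and 15696147 tags in the untreated-labelled library. Of 12 squamous epithelial marker genes, 11 had a region at an end or inside the gene in the lactate-labelled library and 9 in the untreated-labelled library, and KRT14 had none in either. Among markers of other cell types, such a region stood at 2 of 5 blood, 3 of 5 fibroblast and 4 of 5 endothelial genes in the lactate-labelled library, and at 3 of 5 blood, 3 of 5 fibroblast and 4 of 5 endothelial genes in the untreated-labelled library. Counting gene ends only, squamous genes with a region were 9 of 12 in the lactate-labelled library and 7 in the untreated-labelled library. TP63, KRT14 and DSG3 had none at an end in either library. Blood, fibroblast and endothelial counts at ends were 1, 3 and 1 of 5 in the lactate-labelled library, and 2, 2 and 1 in the untreated-labelled library. Of all protein-coding genes, 38.7% had a region at an end in both libraries, 9.61% in the lactate-labelled library alone and 3.77% in the untreated-labelled library alone. The share of all coding genes with a region at an end or inside was not computed. No expression values were used here.

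Long noncoding RNAs are transcribed by RNA polymerase II, often spliced, and not translated. They include scaffolds and decoys for proteins, hosts of small nucleolar RNAs and microRNAs, and transcripts made from enhancers or opposite a coding gene. Lysine lactylation is a modification whose acyl group comes from lactate, the end product of glycolysis, and on histones it has been described at promoters and enhancers of active genes. A pan-lactyllysine antibody does not tell which protein or residue carries the mark.

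Promoter sequences of 7 genes show what the marked starts look like. They are RefSeq sequences on GRCh38.p14, 250 bases before to 50 after the annotated start, read 5′ to 3′ on the gene's strand. Capitals mark matches on either strand to 6 motifs, which are TGANTCA, the AP-1 site with N for any base, CCAAT, the letters of the CCAAT box, GGGCGG, the letters of the GC box, TATAAA, the letters of the TATA box, CACGTG, the letters of the E-box, and GGAATG, the letters of the TEAD site. PCAT7, LINC01531 and MIR762HG were chosen as the strongest genes marked in both libraries that have a window overlapped by a region, and they differ in base composition. PCAT7 (chr9:94554349-94554648, plus strand) has 11 CpG and holds CCAAT and TEAD letters. LINC01531 (chr19:35405357-35405656, plus strand) has 4 CpG and 1 AP-1 match, which overlaps a CCAAT match on the other strand. MIR762HG (chr16:30875210-30875509, plus strand) has 36 CpG and none of the 6 motifs.
PCAT7: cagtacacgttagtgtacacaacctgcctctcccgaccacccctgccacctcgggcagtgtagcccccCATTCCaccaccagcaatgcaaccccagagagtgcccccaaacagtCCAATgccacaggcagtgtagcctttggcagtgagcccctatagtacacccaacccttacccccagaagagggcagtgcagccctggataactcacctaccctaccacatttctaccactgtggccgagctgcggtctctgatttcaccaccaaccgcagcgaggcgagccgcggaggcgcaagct
LINC01531: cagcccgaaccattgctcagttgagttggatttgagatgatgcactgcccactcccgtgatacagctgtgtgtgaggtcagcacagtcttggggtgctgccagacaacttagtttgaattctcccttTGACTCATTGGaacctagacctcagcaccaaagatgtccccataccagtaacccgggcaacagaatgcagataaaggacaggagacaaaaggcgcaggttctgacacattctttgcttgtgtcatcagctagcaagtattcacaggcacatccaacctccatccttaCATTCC
MIR762HG: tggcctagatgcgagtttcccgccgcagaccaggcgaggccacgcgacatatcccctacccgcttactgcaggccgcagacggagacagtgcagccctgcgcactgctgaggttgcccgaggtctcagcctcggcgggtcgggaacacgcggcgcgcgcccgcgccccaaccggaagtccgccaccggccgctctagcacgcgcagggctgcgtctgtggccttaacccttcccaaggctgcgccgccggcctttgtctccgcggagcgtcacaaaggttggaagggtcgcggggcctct

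EPC1-AS1 and LINC02773 are shown as genes with a region in the lactate-labelled library alone, and FAM99B as a gene with a region in the untreated-labelled library alone. EPC1-AS1 (chr10:32347114-32347413, plus strand) has 42 CpG and 4 GC boxes. LINC02773 (chr1:212665596-212665895, minus strand) has 13 CpG and 1 GC box, and FAM99B (chr11:1685580-1685879, minus strand) has 7 CpG and none of the motifs. LINC00460 (chr13:106376314-106376613, plus strand), described in head and neck cancer, was added after its values were seen because it holds 2 AP-1 matches with only 8 CpG.
EPC1-AS1: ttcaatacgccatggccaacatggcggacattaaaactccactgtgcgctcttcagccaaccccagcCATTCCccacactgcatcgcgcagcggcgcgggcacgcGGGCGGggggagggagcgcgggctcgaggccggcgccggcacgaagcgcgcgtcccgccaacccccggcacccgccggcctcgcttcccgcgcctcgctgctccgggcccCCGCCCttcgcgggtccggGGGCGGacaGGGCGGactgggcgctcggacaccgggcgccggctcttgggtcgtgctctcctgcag
LINC02773: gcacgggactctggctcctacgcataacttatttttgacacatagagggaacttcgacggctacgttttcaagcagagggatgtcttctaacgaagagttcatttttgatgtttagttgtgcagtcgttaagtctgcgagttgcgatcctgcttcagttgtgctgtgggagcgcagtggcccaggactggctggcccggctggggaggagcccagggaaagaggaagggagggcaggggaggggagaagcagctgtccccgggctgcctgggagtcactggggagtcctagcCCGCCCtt
FAM99B: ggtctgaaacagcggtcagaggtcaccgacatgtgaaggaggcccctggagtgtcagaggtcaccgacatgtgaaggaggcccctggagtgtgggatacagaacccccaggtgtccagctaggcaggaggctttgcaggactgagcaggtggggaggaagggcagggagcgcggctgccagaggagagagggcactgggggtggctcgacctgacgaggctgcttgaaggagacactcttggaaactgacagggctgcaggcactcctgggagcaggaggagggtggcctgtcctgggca
LINC00460: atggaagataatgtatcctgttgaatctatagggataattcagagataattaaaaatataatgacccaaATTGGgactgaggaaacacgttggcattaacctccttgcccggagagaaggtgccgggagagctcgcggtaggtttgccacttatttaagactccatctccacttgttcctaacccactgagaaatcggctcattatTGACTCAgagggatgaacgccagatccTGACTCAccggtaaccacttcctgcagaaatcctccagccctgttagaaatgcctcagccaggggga

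Regions at lncRNA ends were a small and even share of both lists. They were 4.21% of regions in the lactate-labelled library (4.04 to 4.39%) and 4.22% in the untreated-labelled library (4.03 to 4.42%). The windows that could hold such a region cover 57.1 Mb, or 1.84% of the genome, so regions fell there 2.29 times as often as the windows' size gives in the lactate-labelled library (2.19 to 2.39) and 2.29 times in the untreated-labelled library (2.19 to 2.40). The same ratio at protein-coding gene ends was 8.53 in the lactate-labelled library and 8.31 in the untreated-labelled library. The ratio at lncRNA ends was thus above 1 in both libraries and far below that at coding ends.

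In strength these regions were ordinary. Fold enrichment, the tags at the summit over the local background, had a median of 4.86 at lncRNA ends, 5.06 at protein-coding ends and 4.96 at regions over 10 kb from any gene end in the lactate-labelled library. In the untreated-labelled library the medians were 4.67, 4.89 and 4.68 in the same order. Fold enrichment at lncRNA ends ranged from 2.19 to 14.2 in the lactate-labelled library and from 1.98 to 12.2 in the untreated-labelled library. Median length lay between the other classes, at 338 bp for lncRNA ends, 395 bp for coding ends and 302 bp for distant regions in the lactate-labelled library, and 313, 364 and 290 bp in the untreated-labelled library. The median summit held 16 tags at lncRNA ends in the lactate-labelled library and 15 in the untreated-labelled library, so the typical region rests on few tags. Regions at lncRNA ends lay inside a protein-coding gene in 29.9% of cases in the lactate-labelled library (27.9 to 31.9%) and 30.1% in the untreated-labelled library (28.0 to 32.2%), against 47.4% of all regions in the lactate-labelled library and 46.5% in the untreated-labelled library. The rule's distance from coding ends bears on this share. Another annotated coding start, not the gene's outer end, lay within 1 kb of 147 of the regions in the lactate-labelled library and 129 in the untreated-labelled library.

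Regions just inside and just outside the 1 kb limit were alike in number and strength. Summits 900 to 1000 bp from an end numbered 138 in the lactate-labelled library and 106 in the untreated-labelled library, and those in the next 100 bp outward numbered 118 in the lactate-labelled library and 106 in the untreated-labelled library. Their median fold enrichment was 4.44 inside and 4.56 outside in the lactate-labelled library. Regions over 3 and up to 4 kb from a coding end numbered 70 in the lactate-labelled library and 62 in the untreated-labelled library, and those 2 to 3 kb away, which the rule left out, numbered 113 in the lactate-labelled library and 100 in the untreated-labelled library.

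Within the set, regions gathered at the start of the gene. Strand was known for 1450 regions of the lactate-labelled library and 1255 of the untreated-labelled library. The nearer end was the start for 1064 in the lactate-labelled library (73.4%, 71.0 to 75.6%) and 914 in the untreated-labelled library (72.8%, 70.3 to 75.3%). Of these, 582 lay within 250 bp of the start in the lactate-labelled library (54.7%) and 489 in the untreated-labelled library (53.5%). At the far end, 89 of 386 regions in the lactate-labelled library (23.1%) and 66 of 341 in the untreated-labelled library lay that close to the end. The commonest position was the 100 bp just upstream of the start, which held 231 regions, or 21.7%, in the lactate-labelled library. The median summit lay 36 bp upstream of the start in the lactate-labelled library and 42 bp upstream in the untreated-labelled library. Regions at starts were a little stronger, with a median fold enrichment of 4.97 against 4.67 at far ends in the lactate-labelled library, and 4.67 against 4.62 in the untreated-labelled library.

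**Figure D1:**
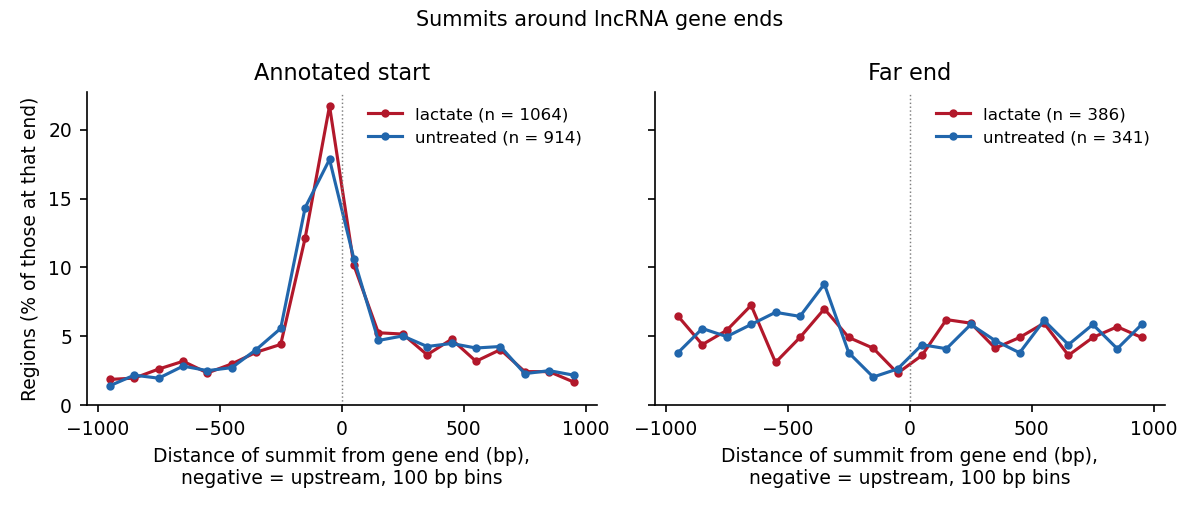
Distance of the strongest summit from the nearer gene end in bp (horizontal axis, negative upstream, in the direction of the gene) against the percentage of regions per 100 bp (vertical axis), for starts and far ends in each library. The start panel peaks just upstream of 0, with 21.7% of 1064 regions of the lactate-labelled library in the last 100 bp, while the far end has no such peak.

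At the gene level, 2343 of 17902 lncRNA genes were marked by a region. Of the 16447 genes with an end over 3 kb from coding ends, 2337 were marked (14.2%, 13.7 to 14.8%). A region stood in both libraries at 1352 genes, in the lactate-labelled library alone at 617 and in the untreated-labelled library alone at 374, which are 8.21%, 3.73% and 2.27% when counted over the eligible genes. A gene marked in both libraries need not have overlapping regions in them. At MIR3150BHG, for example, the strongest region of each library overlapped no region of the other. Most of the marked genes, 1492, have only a provisional LOC symbol, and 409 of the 617 and 251 of the 374 are of that kind. Ends can coincide, and 116 regions of the lactate-labelled library and 102 of the untreated-labelled library lay at ends of more than 1 lncRNA gene, PCAT7 among them. For comparison, 38.7% of protein-coding genes had a region at an end in both libraries, 9.61% in the lactate-labelled library alone and 3.77% in the untreated-labelled library alone.

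Naming classes differed in how often they were marked. Host genes of small RNAs were marked most, at 34 of 118 genes (32.4% of eligible genes, 23.6 to 42.2%). Genes with other names came next, at 124 of 692 (21.5% of eligible, 18.2 to 25.1%), and the intervals overlap. Intergenic LINC genes were marked at 381 of 2306 (16.8% of eligible), antisense genes at 274 of 2043 (16.2%) and LOC genes at 1492 of 12046 (13.1%). Divergent transcripts, which start beside another gene, were marked at 33 of 590 genes (8.38% of the 394 that were eligible). A gene was eligible when either end lay over 3 kb from coding ends, so a start close beside a coding gene could not be counted. The rule's distance therefore bears on the share of divergent transcripts. Of the 34 host genes, 22 were marked in both libraries, 11 in the lactate-labelled library alone and 1 in the untreated-labelled library alone.

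**Figure D2:**
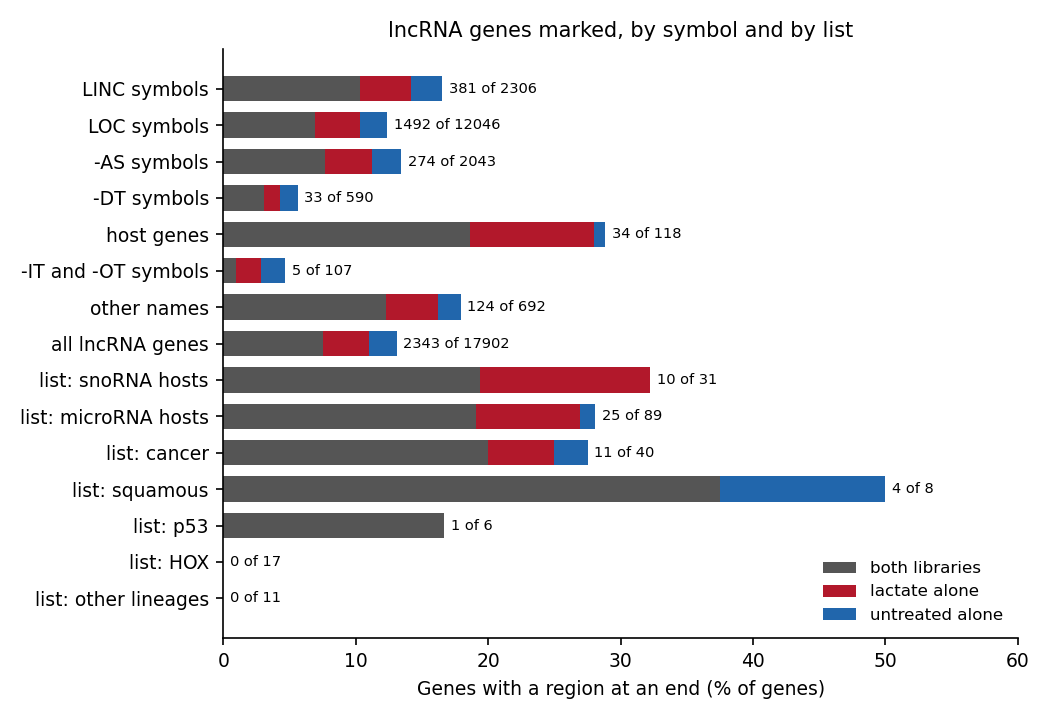
Percentage of all lncRNA genes, eligible or not, with a region at an end (horizontal axis) for each naming class and each list of characterised genes (vertical axis), split by the libraries in which the region was called, with marked and total genes printed beside each bar. Host genes, at 34 of 118, stand above the other naming classes, and the HOX and other-lineage lists, of only 17 and 11 genes, have no marked gene.

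The strongest genes with a settled symbol were mostly intergenic lncRNAs with no assigned role. PCAT7, a prostate cancer-associated transcript, had a region at chr9:94554030-94555032 with 60 tags in the lactate-labelled library and one of 35 tags in the untreated-labelled library, with fold enrichments of 12.2 and 7.29. LINC00663 (chr19:19776050-19776812) had 42 tags in the lactate-labelled library and 27 in the untreated-labelled library. LINC03126 (chr1:16872556-16873204) had 50 tags in the lactate-labelled library and 37 in the untreated-labelled library, with fold enrichments of 11.2 and 8.88. Scaled to each library's tags, the ratio was 1.78 at PCAT7 (1.15 to 2.78), 1.61 at LINC00663 (0.973 to 2.72) and 1.40 at LINC03126 (0.899 to 2.21), where the median over all shared sites was 1.17. LINC01531 (chr19:35405169-35405770) was nearly level, with 41 tags in the lactate-labelled library and 40 in the untreated-labelled library. LINC01186 on the X chromosome (chrX:46325515-46325859) had 33 tags in the lactate-labelled library against 12 in the untreated-labelled library, at the gene's far end. MIR762HG, a microRNA host gene (chr16:30875208-30875538), had 39 tags in the lactate-labelled library against 15 in the untreated-labelled library. These 6 were chosen by their fold enrichment in the lactate-labelled library, so that choice bears on the direction of their ratios.

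Genes with only a LOC symbol held the extremes of the whole set. LOC112267988 had the highest fold enrichment, 14.2 with 44 tags in the lactate-labelled library (chr7:143836236-143836980) and 12.2 with 33 tags in the untreated-labelled library. LOC101928626 had the most tags, 119 in the lactate-labelled library at chr1:629825-630087, over a local background of 28.3 tags that left its fold enrichment at 4.10, and the gene had no region in the untreated-labelled library. That background was the highest of the set in the lactate-labelled library. Whether the tags there map to several places was not tested. LOC105376627 (chr11:35082303-35083113) had 114 tags in the lactate-labelled library and 101 in the untreated-labelled library, and the nearest coding gene end, 56.5 kb away, was that of CD44, a cell surface receptor for hyaluronan.

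With LOC symbols passed over, LINC02029 had the most regions of a single gene, 3 in the lactate-labelled library and 4 in the untreated-labelled library, and HCG27 had 3 in each. LINC00880, with 2 in the lactate-labelled library and 3 in the untreated-labelled library, was tied with several genes, MIR4280HG among them. LINC02029 and LINC00880 lie in the same stretch of chromosome 3. In the lactate-labelled library a region of 1639 bp at ends of both genes (chr3:157081614-157083252) held 107 tags. In the untreated-labelled library this stretch was called in separate pieces, of 363 bp with 79 tags and 1069 bp with 74 tags. The extra region of that library at each gene comes from this split. The ratio of 107 to 79 tags was 1.41 once scaled to each library's tags (1.04 to 1.91). A second region (chr3:157088621-157089671), at ends of LINC00881 and LINC02029, held 82 tags in the lactate-labelled library and 59 in the untreated-labelled library. Its ratio was 1.44 (1.02 to 2.05). Background was high across this stretch, at 15.8 and 14.5 tags beneath these regions in the lactate-labelled library, so their fold enrichments were only 6.44 and 5.35 in that library.

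Of the regions, 741 of 2112 in the lactate-labelled library overlapped no region of the other library (35.1%, 33.05 to 37.2%), against 38.9% of all its regions. In the untreated-labelled library, 439 of 1833 overlapped none (23.95%, 22.01 to 26.0%), against 28.7% of all its regions. Shares at lncRNA ends were thus a few points below the background in both libraries and above those at coding ends, which were 29.1% in the lactate-labelled library and 14.2% in the untreated-labelled library. Matching moved with strength. Among the weakest 10%, 133 of 191 lncRNA regions were unmatched in the lactate-labelled library (69.6%) and 80 of 172 in the untreated-labelled library (46.5%), against 67.7% and 49.1% of all regions of these libraries, while among the strongest 10% only 3 of 222 in the lactate-labelled library and 7 of 192 in the untreated-labelled library were (1.35% and 3.65%, against 3.69% and 2.16% of all). Both lists were also cut to the same number of regions, those of highest fold enrichment, fewer than either list holds. The shares were then 31.6% in the lactate-labelled library and 31.8% in the untreated-labelled library. In the lactate-labelled library alone 298 genes were marked, and in the untreated-labelled library alone 296. Lists of equal length bring such shares close together by themselves, so these values do not compare the libraries. Position within the gene moved with matching as well, since 32.6% of regions at starts and 42.5% at far ends were unmatched in the lactate-labelled library, and 20.2% and 33.4% in the untreated-labelled library.

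Being marked in a single library means that no region of the other library met the rule at that gene, and a region may still have been called nearby. The strongest region overlapped a called region of the other library at 27 genes marked in the lactate-labelled library alone and at 28 marked in the untreated-labelled library alone. EPC1-AS1, antisense to the chromatin gene EPC1, is such a gene, since its strongest region in the lactate-labelled library (chr10:32346248-32346490, fold enrichment 8.03) overlapped a region of 13 tags in the untreated-labelled library whose summit fell outside the rule. The next strongest genes of the lactate-labelled library alone were LINC02773 (chr1:212665283-212665776) with 30 tags and a fold enrichment of 7.05, LINC02084 (chr3:27712114-27712355) with 13 tags and 6.93, LINC01121 (chr2:45173570-45173798) with 20 tags and 6.60, and ZNF30-AS1 (chr19:34926811-34927012) with 13 tags and 6.48. The region of LINC01121 lay at the gene's far end. The nearest summit of the untreated-labelled library lay 1266 bp from an end of LINC02773 and 2653 bp from one of ZNF30-AS1. It lay 4267 bp away at LINC01121 and 43938 bp away at LINC02084. The summit at LINC02084 lies 3.73 kb from an end of EOMES, a T-box transcription factor gene. In the untreated-labelled library alone the strongest were FAM99B (chr11:1685412-1685700) with 20 tags and 7.45, FAM230E (chr22:18733588-18733898) with 15 tags and 7.41, COL4A2-AS1 (chr13:110507756-110508085) with 30 tags and 7.14, LNCAROD (chr10:52470372-52470642) with 14 tags and 7.08, and LINC01890 (chr2:68837304-68837535) with 17 tags and 6.77. FAM230E belongs to a multi-copy family, whose reads can map to several places, and LNCAROD is named for its effect on the neighbouring gene DKK1. The nearest summit of the lactate-labelled library lay 2680 bp from an end of COL4A2-AS1 and 3308 bp from one of FAM230E. It lay 4389 bp away at LNCAROD, 4511 bp at LINC01890 and 8566 bp at FAM99B. Of the genes named here, only LINC02084 and FAM99B had no summit of the other library within 5 kb of an end. Tags at positions without a call were not analysed here.

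Regions present in both libraries were slightly deeper in the lactate-labelled library. At 1371 shared sites the median per-million pileup, the tags at the summit scaled to the library's tags, was 1.26 in the lactate-labelled library and 1.08 in the untreated-labelled library, and the median ratio was 1.19 (log2 0.25, interquartile range −0.03 to 0.50). The median log2 ratio over all 30633 shared sites was 0.22, at coding ends 0.29 and at distant regions 0.19, so lncRNA ends lay within the range of the rest; divided by the median of all shared sites, their median log2 ratio was 0.023. Sites at least 1.5-fold higher in the lactate-labelled library numbered 268 (19.5%, 17.5 to 21.7%), against 20% of all shared sites. Sites at least 1.5-fold lower in that library numbered 39 (2.84%, 2.03 to 3.87%), against 3.32% of all. Both shares were close to the background. The counting interval of the ratio lay above 1 at 61 of the 1371 sites and below 1 at 4, against 1518 and 93 of all 30633, so a single interval above 1 was about as frequent as elsewhere. Across the 1371 sites, which share the 2 libraries and their background, per-million pileups had a Spearman correlation of 0.806.

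Among sites with at least 20 tags in either library, the highest ratios of genes with a settled symbol were at LINC01186 (2.85), MIR762HG (2.70) and LINC02225 (2.56), the last at chr5:57889269-57889943 with 32 tags in the lactate-labelled library and 13 in the untreated-labelled library. Lowest were SYNE1-AS2, antisense to the nuclear envelope gene SYNE1, with 10 tags in the lactate-labelled library and 20 in the untreated-labelled library, LINC02352 with 11 and 20, and LINC01990 with 17 and 28. These were picked for their ratios and are given as a description.

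**Figure D3:**
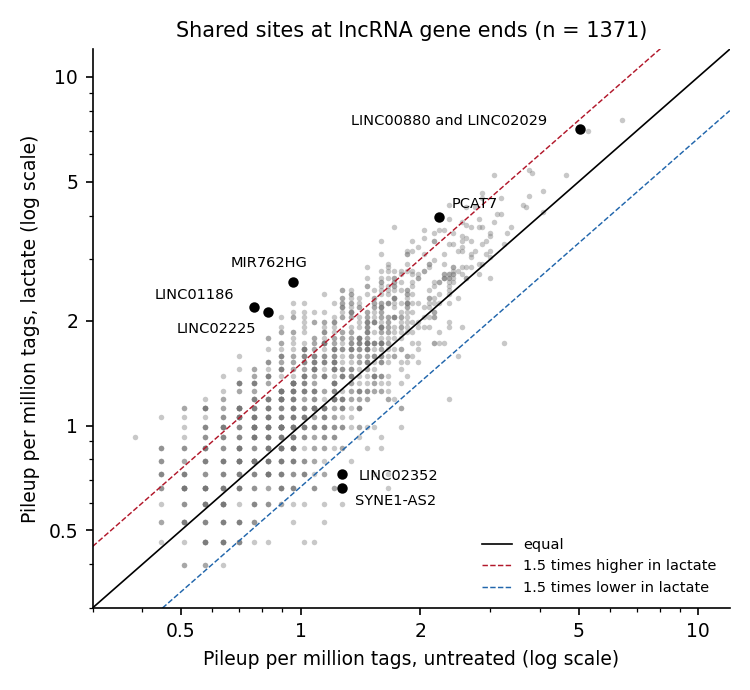
Per-million pileup at the summit in the lactate-labelled library against the untreated-labelled library, both axes logarithmic, for the 1371 sites at lncRNA ends with a region in both, each point a site. The points scatter along the diagonal with the median slightly on the side of the lactate-labelled library (ratio 1.19), with dashed lines at 1.5 times higher and lower in the lactate-labelled library and named genes of the text labelled.

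Hosts of small nucleolar RNAs, which guide the modification of ribosomal RNA, were marked at 10 of 31 genes, or 10 of 25 that were eligible, against 14.2% of all eligible lncRNA genes. Over all eligible genes 8.21% were marked in both libraries, 3.73% in the lactate-labelled library alone and 2.27% in the untreated-labelled library alone, which are the shares to set beside the counts of each list. SNHG5, SNHG15, SNHG16, SNHG21, SNHG30 and SNHG33 had a region in both libraries. SNHG30 had 31 tags in the lactate-labelled library and 27 in the untreated-labelled library, SNHG15 had 34 and 35, SNHG5 had 34 and 26, and SNHG21 had 18 and 17. These values were close between libraries for their depth. SNHG3, SNHG11, SNHG26 and SNHG32 had a region in the lactate-labelled library alone, with fold enrichments of 2.99, 3.25, 3.95 and 5.74, and no gene of the list had one in the untreated-labelled library alone. The region of SNHG3 lay at the gene's far end. Of the 21 unmarked hosts, 5 had no region within 1 kb of an end, and the others had regions that the distance from coding ends left out.

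Hosts of microRNAs were marked at 25 of 89 genes, 17 in both libraries, 7 in the lactate-labelled library alone and 1, MIR570HG, in the untreated-labelled library alone, where its region overlapped one of the lactate-labelled library that did not meet the rule. They were 25 of 82 eligible genes, against 14.2% of all eligible lncRNA genes. MIR4458HG had 34 tags in the lactate-labelled library and 33 in the untreated-labelled library, in a region it shares with LINC02226. MIR181A2HG had 48 tags in the lactate-labelled library against 29 in the untreated-labelled library (ratio 1.72, 1.06 to 2.83). MIRLET7A1HG, host of let-7 microRNAs, had 47 tags in the lactate-labelled library against 29 in the untreated-labelled library (1.68, 1.04 to 2.77). These ratios are not divided by the median ratio of 1.17 over all shared sites. FTX, a noncoding gene of the X-inactivation centre, had 13 tags in the lactate-labelled library and 20 in the untreated-labelled library (0.675, 0.308 to 1.43). MIR205HG, host of the epithelial microRNA miR-205, had 32 tags in the lactate-labelled library and 21 in the untreated-labelled library. Its region lay just past the gene's far end and not at its start. MIR31HG had 13 tags in the lactate-labelled library and 11 in the untreated-labelled library. MIR17HG, host of the miR-17 cluster, had 12 tags at its strongest region in the lactate-labelled library and 10 in the untreated-labelled library, at different positions. The 7 hosts called in the lactate-labelled library alone were MIR181A1HG, MIR200BHG, MIR222HG, MIR23AHG, MIR3142HG, MIR365BHG and MIR4422HG, and their fold enrichments ran from 2.35 at MIR23AHG to 5.21 at MIR3142HG, most of them below the median of the set. The region of MIR4422HG lay at the gene's far end. So did that of MIR194-2HG, marked in both libraries with 56 tags in the lactate-labelled library and 53 in the untreated-labelled library. The strongest regions of MIR4280HG lay at its far end as well.

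Few regions covered a microRNA itself. Hairpins overlapped were 4 in the lactate-labelled library and 3 in the untreated-labelled library, namely MIR5087, MIR132 and MIR4449 in both and MIR4519 in the lactate-labelled library. MIR4519 lies in the MIR762HG region described above. MIR4449 lies in the region at DANCR, and MIR132 in one at LOC124903896 (chr17:2049844-2050230) with 17 tags in the lactate-labelled library and 17 in the untreated-labelled library. The mature RefSeq sequences are given with the seed, bases 2 to 8, in capitals, and their seeds all differ.
hsa-miR-132-3p: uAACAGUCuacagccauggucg
hsa-miR-4449: cGUCCCGGggcugcgcgaggca
hsa-miR-4519: cAGCAGUGcgcagggcug

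Among 40 cancer-associated lncRNAs, 8 were marked in both libraries, 2 in the lactate-labelled library alone and 1 in the untreated-labelled library alone, together 11 of 36 eligible genes. DANCR, which keeps epidermal progenitors undifferentiated, had 24 tags in the lactate-labelled library and 15 in the untreated-labelled library (ratio 1.66, 0.836 to 3.41). LINC00460 had 26 tags in the lactate-labelled library and 16 in the untreated-labelled library (1.69, 0.871 to 3.37). DLEU1, from the region deleted in lymphocytic leukemia, had 29 tags in the lactate-labelled library and 33 in the untreated-labelled library. NORAD, which binds PUMILIO proteins, had 12 tags in the lactate-labelled library and 12 in the untreated-labelled library, and LINC00941, which represses epidermal differentiation, had 19 and 20. LUCAT1 had 13 tags in the lactate-labelled library and 15 in the untreated-labelled library. ELFN1-AS1 and VPS9D1-AS1 had a region in the lactate-labelled library alone and FOXD2-AS1 in the untreated-labelled library alone, that of FOXD2-AS1 at the gene's far end. Of 8 lncRNAs linked to squamous epithelium, MIR205HG, DANCR and LINC00941 had a region in both libraries and LINC00520 one of 6 tags in the untreated-labelled library alone. NORAD was the marked gene of the 6 tied to p53. None of 17 lncRNAs of the HOX clusters was marked, of which only 9 were eligible and 12 had no region within 1 kb of an end, and none of 11 lncRNAs of other lineages, such as those of heart, muscle and neurons, all eligible, had a region within 1 kb. Over all eligible lncRNA genes 14.2% were marked, so lists as short as these say little about lineage.

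**Figure D4:**
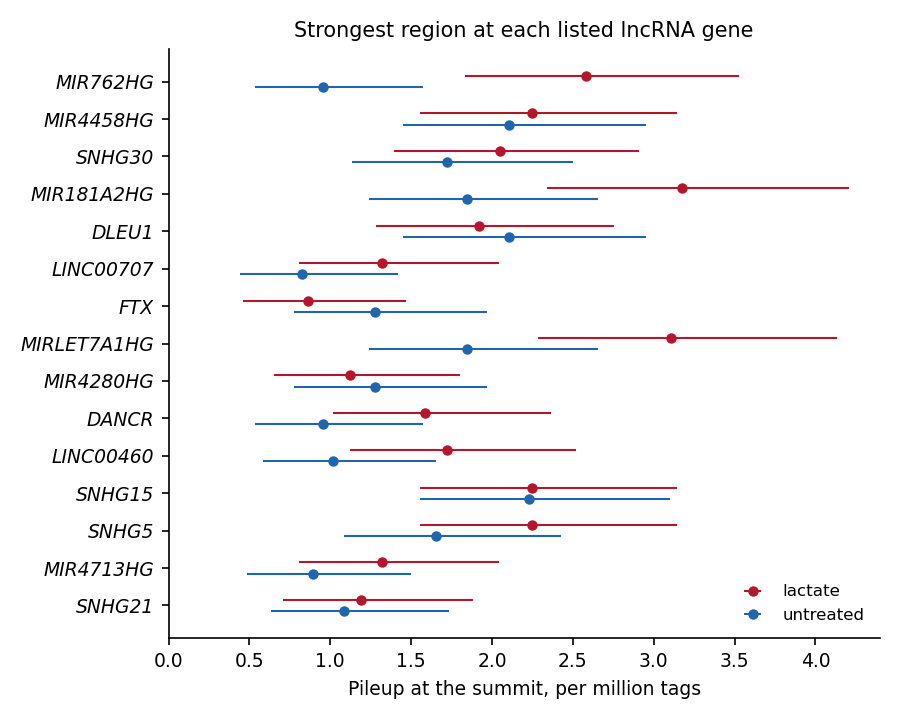
Per-million pileup at the strongest region (horizontal axis) of characterised lncRNA genes (vertical axis) in the lactate-labelled library and the untreated-labelled library, with 95% Poisson intervals that cover counting error only. The strongest region was taken in each library by itself, and at MIR4280HG and MIR4713HG it lay at different positions. At MIR4280HG it lay at the gene's far end in both libraries. The point of MIR762HG lies to the right in the lactate-labelled library, at 2.58 against 0.956 in the untreated-labelled library (ratio 2.70, 1.45 to 5.27). The points of MIR181A2HG and MIRLET7A1HG also lie to the right in the lactate-labelled library and that of FTX to the left. For these last genes the intervals overlap between the libraries. The points of SNHG15 and MIR4458HG are nearly level.

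The marked lncRNA starts were richer in CpG than the unmarked ones. Of 8542 promoter windows over 3 kb from coding ends, 511 were overlapped by a region in both libraries, 214 in the lactate-labelled library alone, 103 in the untreated-labelled library alone and 7714 in neither. Median GC content was 58.3% where both libraries had a region, 54.7% for the lactate-labelled library alone, 55.7% for the untreated-labelled library alone and 45.7% where neither had. Windows with at least 50% GC and a CpG observed-to-expected ratio of at least 0.6 are called CpG-rich here, and they were 40.7% of windows marked in both (36.4 to 45.1%) and 8.10% of those marked in neither (7.50 to 8.73%). Even so, most marked lncRNA windows were not CpG-rich, unlike those of marked coding genes, of which 87.7% were. Put the other way, 268 of 924 CpG-rich lncRNA windows had a region in the lactate-labelled library (29.0%) and 239 in the untreated-labelled library (25.9%), against 457 (5.999%) in the lactate-labelled library and 375 (4.92%) in the untreated-labelled library of the 7618 others.

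AP-1 letters were more frequent in marked windows, mainly in those that were not CpG-rich. The AP-1 letters TGANTCA, bound by FOS and JUN proteins, were in 26.8% of windows marked in both libraries, 21.0% in the lactate-labelled library alone, 16.5% in the untreated-labelled library alone and 10.9% in neither, against 7.71% of all windows of the table. Among windows that were not CpG-rich, 127 of 303 marked in both held them (41.9%, 36.3 to 47.7%), against 822 of 7089 marked in neither (11.6%, 10.9 to 12.4%). In CpG-rich windows they were rare in either case, in 10 of 208 marked in both and 20 of 625 in neither. Windows with the letters were marked in at least 1 library in 199 of 1041 cases (19.1%) and those without in 629 of 7501 (8.39%). The median log2 ratio between libraries at windows marked in both was 0.27 with the letters and 0.27 without. GC boxes were in 43.2% of windows marked in both, 28.0% in the lactate-labelled library alone and 34.0% in the untreated-labelled library alone, against 12.4% in neither and 45.0% of all windows. CCAAT differed little, at 33.3% in both and 36.5% in neither, against 34.6% of all windows. TATAAA was less common in marked windows, at 8.41% in both against 19.2% in neither and 11.5% of all windows. TEAD letters were in 21.1% of windows marked in both and 18.97% of those in neither, against 14.0% of all windows. E-box letters were in 9.98% of windows marked in both and 4.19% of those in neither, against 7.26% of all. In the lactate-labelled library alone E-box letters were in 10.7%, and in the untreated-labelled library alone in 3.88%, or 4 of 103. A match is a string of letters and not a bound site, and the marked and unmarked windows differ in base composition, whose part in these shares was not tested beyond the CpG division of the AP-1 letters.

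**Figure D5:**
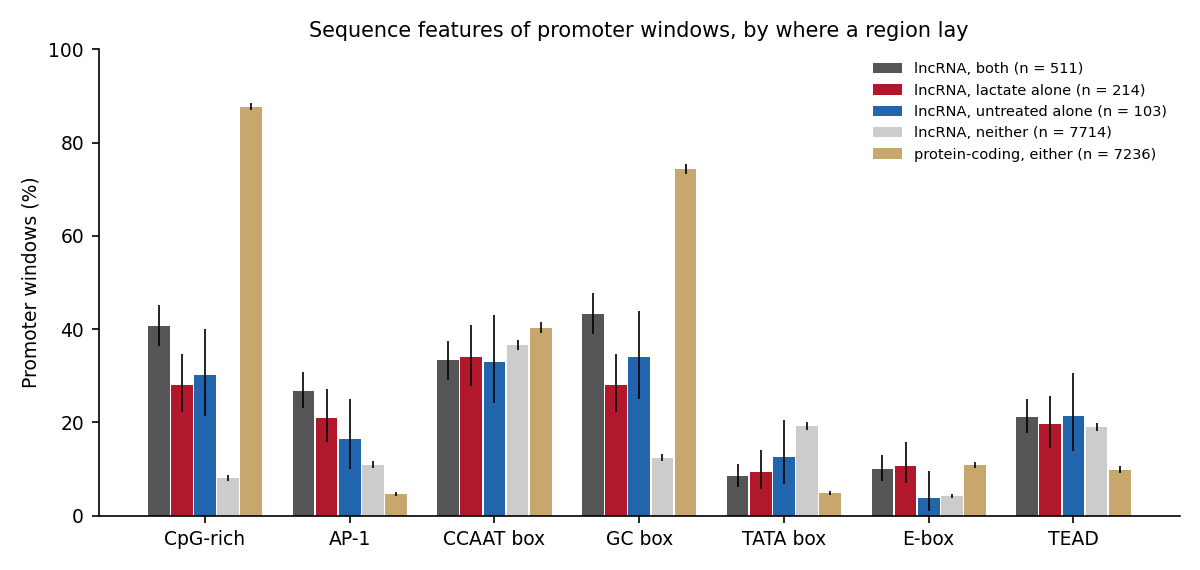
Percentage of promoter windows (vertical axis) that are CpG-rich or hold each of the 6 motifs (horizontal axis), for lncRNA windows by the libraries in which a region overlapped them and for protein-coding windows marked in either library, with 95% Clopper-Pearson intervals. CpG-rich windows are 40.7% of lncRNA windows marked in both and 8.10% of those in neither, and AP-1 letters are in 26.8% and 10.9%.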

How the data were processed

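CUT&Tag with a pan-lactyllysine antibody was analysed in 2 CAL27 libraries, 1 given lactate and 1 untreated. The submitters' processing notes name hg38, BWA, MACS2 2.1.0 and fastp 0.20.0. Per the file headers, MACS 2.1.0.20150420 called peaks in each library without a control library (shift −100, extension 200, q 0.05, duplicates kept). The deposited pileup is a signal, the unscaled number of tags over the summit. The deposited fold enrichment is the ratio of pileup to local background, both with 1 tag added, and the background was computed back from it. Sub-peaks with the same coordinates were joined into 1 region, represented by its summit of highest fold enrichment.

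Gene ends came from a RefSeq gene table and strand from its promoter table, both GRCh38.p14. Left out were 426 genes on other scaffolds, 52 short genes of the ncRNA biotype (longest 421 bp) and 19 of the antisense_RNA biotype. Regions sharing at least 1 bp counted as present in both libraries. Pileups were divided by each library's tags, 15120031 for lactate and 15696147 for untreated, and ratios carry exact conditional binomial intervals, shares Clopper-Pearson intervals. With 1 library per group no differential test was made. Named genes, LOC symbols passed over, were the 6 of highest fold enrichment marked in both libraries, 5 in each alone, 3 with most regions, the 3 highest and 3 lowest ratios, and the 15 strongest of 7 lists of characterised lncRNAs. The regions and lists were chosen with earlier results of these data known. Alternatives were other windows, thresholds, overlaps, list sizes and scaling. The steps were run on simulated regions, where 200 of 200 members planted inside the windows were found. These were placed where the rule accepts them, so this checks the code and not the peak calls or the ratios. Python 3.11.15, pandas 2.3.3, SciPy 1.17.1 and bedtools 2.31.1 were used.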

Additional observations from a re-analysis of the deposited data

Results flagged for a closer look

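Regions outside chromosomes 1 to 22 and X entered none of the comparisons. They numbered 241 in the lactate-labelled library and 267 in the untreated-labelled library, and they lie on other sequences of the build for which no gene ends were used here.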

How the results depend on the processing

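Of 102 values recomputed under other settings, 39 moved, a count by more than 1.5 times and a share or ratio past its own interval or spread, and 63 stayed within these limits. The median log2 ratio stayed above 0 in each. With a 500 bp window there were 1362 regions in the lactate-labelled library and 1176 in the untreated-labelled library, 2.88 times the share of the genome in the lactate-labelled library and 2.87 times in the untreated-labelled library, 890 genes marked in both and 21.5% of regions of the untreated-labelled library unmatched. With a 2 kb window there were 3195 regions in the lactate-labelled library, and the ratios were 1.81 there and 1.79 in the untreated-labelled library. At a fold enrichment of at least 5 there were 1011 regions in the lactate-labelled library and 747 in the untreated-labelled library, 43.3% unmatched in the lactate-labelled library, 588 genes in both and 176 in the untreated-labelled library alone. With a recomputed −log10 p of 7 or more there were 1271 regions in the lactate-labelled library, 39.3% of them unmatched, and 963 in the untreated-labelled library, 19.5% unmatched, with 776 genes in both and 175 in the untreated-labelled library alone. With lists cut to equal length by fold enrichment there were 928 regions in the lactate-labelled library and 939 in the untreated-labelled library. Of these 31.6% and 31.8% were unmatched, with 649 genes in both and 298 in the lactate-labelled library alone. Without LOC symbols there were 825 regions in the lactate-labelled library and 707 in the untreated-labelled library, 21.6% of the last unmatched, and 520 genes in both, 208 in the lactate-labelled library alone and 123 in the untreated-labelled library alone. Unmatched shares were 44.6% in the lactate-labelled library and 30.2% in the untreated-labelled library when an overlap of 50% was asked, and 43.6% in the lactate-labelled library and 35.2% in the untreated-labelled library when summits had to lie within 200 bp. Asking for no region of the other library within 5 kb left 393 genes marked in the lactate-labelled library alone and 241 in the untreated-labelled library alone. Scaling by the median of all shared sites gave a median log2 ratio of 0.023. The cause of these moves was not tested, beyond the changed number of regions each setting keeps. Using any summit of a region, adding the antisense_RNA biotype, leaving out regions near annotated coding starts, and dividing the AP-1 counts by CpG class were chosen after seeing the data. No paired analysis was possible because each group has 1 library. The limits are depth, with a median of 16 tags at the summits in the lactate-labelled library and 15 in the untreated-labelled library, and the absence of replicates.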
